A study of Mus musculus with 136 samples.

Results

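The core histone genes were followed through 10 deposited peak lists of mouse embryonic stem (ES) cells. The members were the protein-coding genes of chromosomes 1 to 19 in the RefSeq annotation of mm10 (GRCm38.p6) whose symbol starts with H1f, H2ac, H2bc, H3c or H4c, or whose older name starts with Hist1, Hist2, Hist3 or Hist4. The rule gave 71 of 20665 genes, of which 67 carried a current symbol of this kind and 4 (H4f16, H2bu2, H2aw and H4bc24) were found by their older name. H4bc24 is an H2B gene by its older name, Hist1h2br. By class, 18 genes encoded H2A, 18 H2B, 13 H4, 12 H3 and 10 the linker histone H1. Each gene was described over a window of its body plus 2500 bp on both sides, and a member was counted in a list when at least 1 bp of a peak or region lay in that window.

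The core histones H2A, H2B, H3 and H4 form the nucleosome, and H1 binds the DNA that enters and leaves it. Most of their genes are replication-dependent: they are short, lack introns, lie in clusters, are transcribed in S phase and give mRNAs that end in a stem-loop rather than a poly(A) tail. A smaller number are transcribed outside S phase or in germ cells, such as the testis H2A and H2B genes H2ac1 and H2bc1, the oocyte linker histone H1f8 and the replacement linker histone H1f0.

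The cells were E14JU ES cells of strain 129/Ola, kept untreated in serum and LIF. MCM2-2A cells carry a mutated histone-binding domain of MCM2, and WT cells carry the intact gene. MCM2 is a replicative helicase subunit that helps to recycle parental histones H3 and H4 to the lagging strand. In the mutant their recycling is biased to the leading strand. The lists of histone marks used here came from WT clone 410, by native ChIP-seq on MNase-digested chromatin in the original experiment (2 replicates) and the rescue experiment (3 replicates). The marks were also measured in 3 MCM2-2A clones, 439 and 442 among them, and, in the rescue experiment, in clone 442 and in a further clone labelled wildtype, and those samples were not analysed here. SUZ12, which belongs to the core of the H3K27 methyltransferase complex PRC2, was measured by crosslinked ChIP-seq in clone 410 and in clones 439 and 442 of MCM2-2A (3 replicates each). Each list combined its replicates, and the lists represent WT by 1 clone, so the values below have no replicate spread and no test. The depth behind the lists is unknown, and a gene absent from a list was not called there, which does not show that the mark was absent. Bulk ChIP cannot tell a mark present in some cells from a weaker mark in every cell. All 7 ES cell marker genes, among them Pou5f1, Sox2 and Nanog, had H3K4me3 and H3K27ac in the original lists. H3K4me3 did not separate them from markers of other cells, since all 5 fibroblast genes and all 6 trophoblast and endoderm genes had it too, and H3K27ac was found at 1 of the 5 and 3 of the 6.

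The genes lay in 9 places, of which 4 held more than 1 member. The largest, on chromosome 13 from 23531044 to 23934913, held 31 genes, and a smaller cluster on chromosome 13 from 21715711 to 22043658 held 23. A chromosome 3 cluster from 96219885 to 96270192 held 10 genes and a pair on chromosome 11 from 58948911 to 58955192 held H2bu2 and H2aw. The 5 genes that stood alone were H1f10, H1f8 and H4f16 on chromosome 6 and H1f0 and H1f7 on chromosome 15. The median member was 496 bp long, against 17491 bp for all protein-coding genes, so a longer window gave the other genes more chances to meet a peak. Genes of up to 1000 bp, 61 of the members and 1385 of all genes, are therefore given as a second background. The 1385 include the members and also genes of other kinds, such as vomeronasal receptor genes (Vmn1r), so length is not all that differs.

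Most core histone genes carried H3K4me3, the mark of active and poised promoters, together with H3K27ac, an acetylation of promoters and enhancers in use, and little else. H3K4me3 was found at 66 of 71 members in the original list (79.8% of all genes) and at 68 in the rescue list (81.1% of all genes), with 66 in both (79.7% of all genes), and H3K27ac at 65 (68.1% of all genes). Both marks of the original experiment were present at 64 members (66.5% of all genes). Among genes of up to 1000 bp, 59 of 61 members had H3K4me3 in the original list against 13.6% of all such genes, and 57 of 61 had H3K27ac against 11.4%. These shares of all short genes stand for 188 and 158 genes, the members included. The commonest combination over the 10 lists was H3K4me3 in both experiments and H3K27ac, with no H3K27me3, H3K9me3 or SUZ12, and it was shared by 51 members. H3K4me3 and H3K27ac of the original experiment without any of these repressive lists occurred at 12.3% of all genes.

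The marks also took up most of the ground. Over the members the median share of the window inside H3K4me3 peaks was 74.3% in the original list and 74.0% in the rescue list, and inside H3K27ac peaks it was 72.5%, whereas the medians over all genes were 8.79%, 10.1% and 2.97%. The 71 windows overlapped one another and held 71 distinct H3K4me3 peaks in the original list, 47 of which reached more than 1 member, so neighbouring members are not separate measurements. When overlapping windows were merged they made 28 loci, of which 26 had H3K4me3 in the original list, 28 in the rescue list and 26 H3K27ac.

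**Figure D1:**
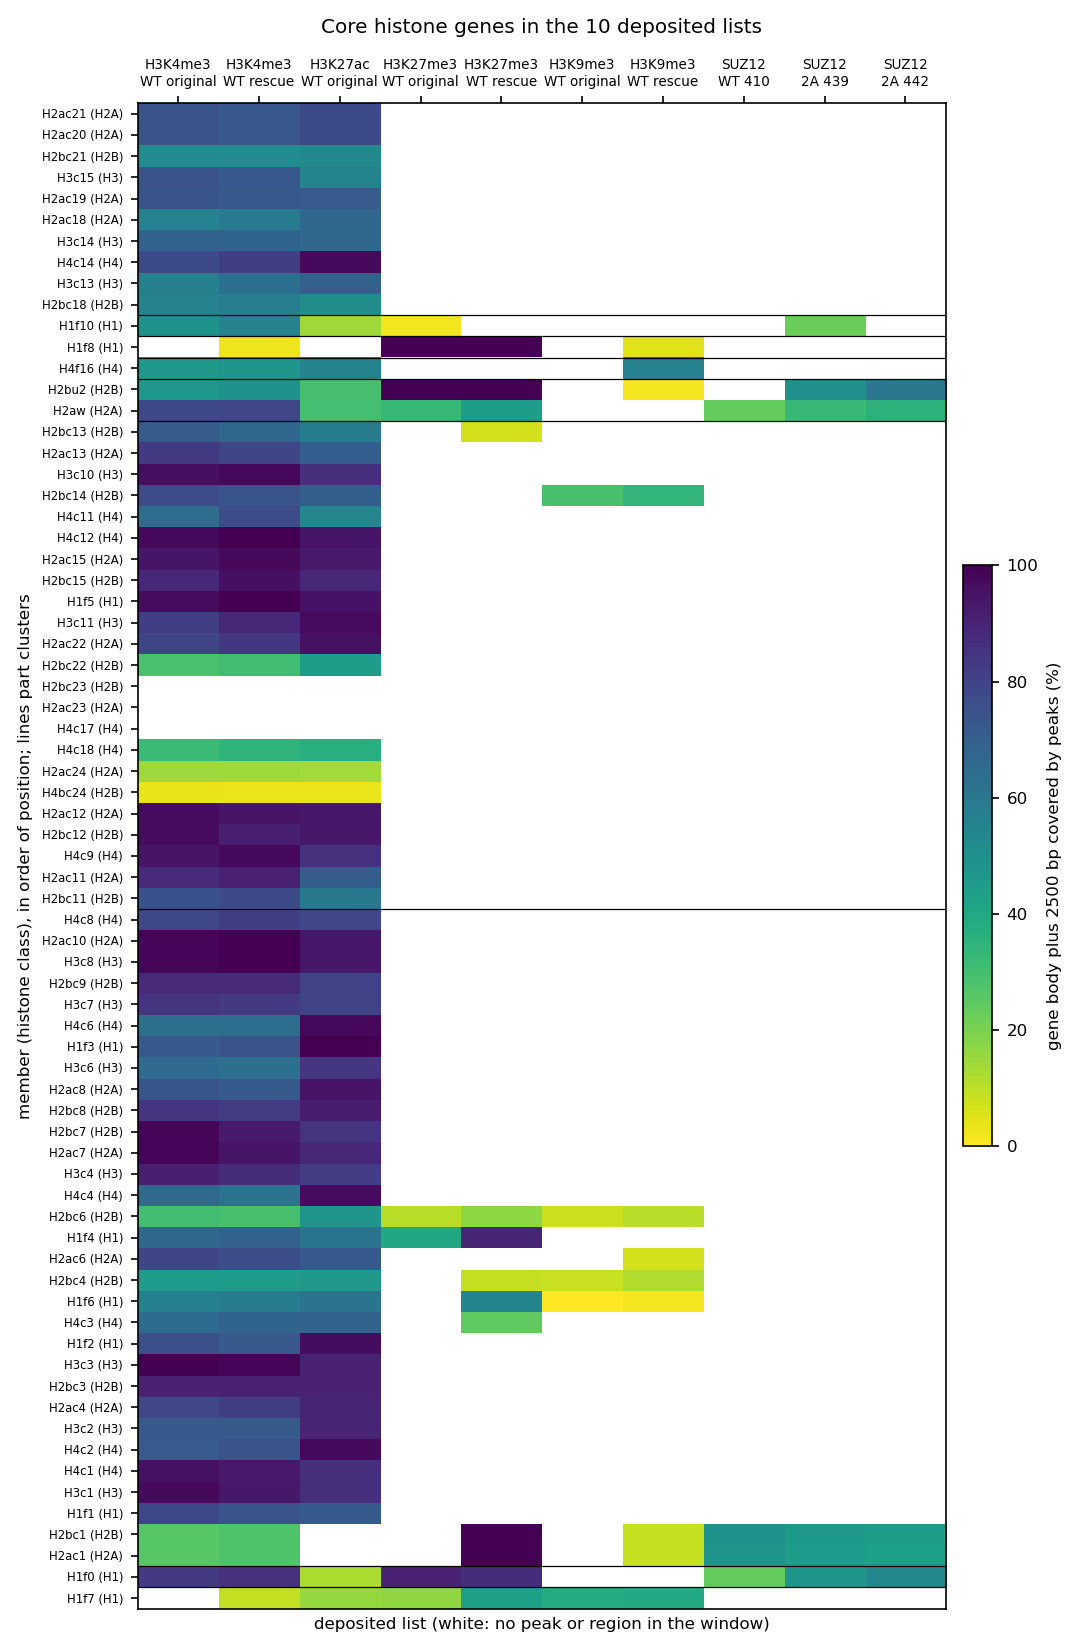
Share of each member's window (gene body plus 2500 bp) covered by peaks or regions, in percent, for 71 members in genome order and 10 deposited lists, with white where nothing was called and black lines between places in the genome. The 3 columns of H3K4me3 and H3K27ac are filled for most rows and the 7 repressive columns at few, and the rows H2bc23, H2ac23 and H4c17 are empty.

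The fold enrichment of the strongest peak in the window, the authors' ratio over local background, differed from that of all genes more for H3K27ac than for H3K4me3. For H3K27ac the members' median was 31.3 (lowest 6.36, highest 63.0), against a median of 10.4 over all genes with a peak, and 61 members had a strongest peak in the top 10% of the H3K27ac list (33.4% of all genes). For H3K4me3 the medians lay nearer to each other: 88.7 against 78.7 in the original list, where 47 members reached the top 10% (47.7% of all genes), and 73.7 against 67.8 in the rescue list, where 48 did (51.6% of all genes). Among the 65 members with an H3K27ac peak the lower quartile, 20.9, was above the upper quartile of all genes, 17.5. The strongest peaks of these 65 members were 36 distinct H3K27ac peaks. For H3K4me3 in the original list, 66 members had 33 distinct strongest peaks. A shared peak therefore counts more than once in these medians, quartiles and counts.

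By class, the H3 genes had the highest median H3K27ac fold enrichment, 37.8 over 12 genes, and the H1 genes the lowest, 16.6 over the 9 of 10 with a peak. The lowest H1 values were those of H1f10 (7.69), H1f7 (6.65) and H1f0 (6.36), which stood alone. H1 genes inside a cluster ranged from 13.1 at H1f6 to 38.1 at H1f1, so the low H1 median cannot be told apart from standing alone. H4 (32.5, 12 of 13), H2A (31.0, 16 of 18) and H2B (30.2, 16 of 18) lay close together and their ranges overlapped. All 12 H3 genes had a strongest H3K27ac peak in the top 10% of the list, with a range of 29.0 to 63.0. So had all 12 H4 and all 16 H2A genes with a peak, 15 of 16 H2B genes and 6 of 9 H1 genes. The H3 range overlapped that of every other class. For H3K4me3 in the original list the class medians were 93.0 for H2A, 91.3 for H3, 88.7 for H2B, 85.6 for H4 and 74.4 for H1, and every class spanned more than the distance between these medians.

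**Figure D2:**
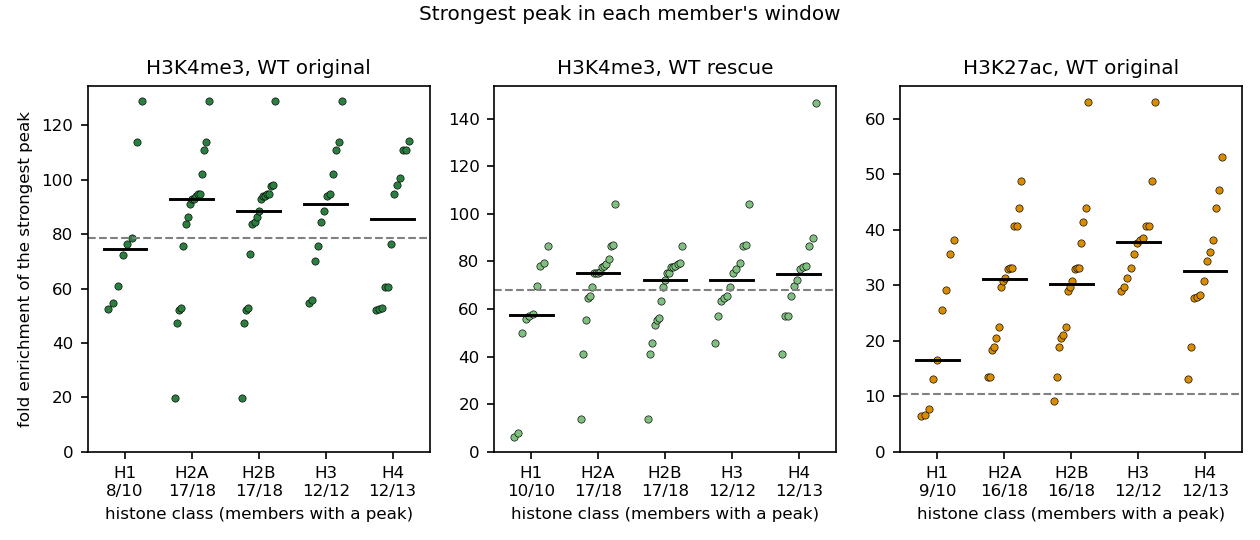
Fold enrichment (the deposited ratio) of the strongest H3K4me3 or H3K27ac peak in the window of each member, by histone class, in 3 lists of WT clone 410. Each point is a member with a peak, with their number out of the class under the axis, black bars are class medians and the dashed line is the median over all genes with a peak (78.7, 67.8 and 10.4). Members that share a peak share its value.

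The values of the 3 large clusters overlapped. Median H3K27ac fold enrichment was 34.8 over the 10 genes of the chromosome 3 cluster, 30.2 over the 20 of 23 genes with a peak in the smaller chromosome 13 cluster and 33.1 over 29 of 31 in the larger. For H3K4me3 the medians were 93.0, 93.9 and 86.4 in the original list and 80.95, 77.2 and 65.5 in the rescue list, and the ranges of the 3 clusters overlapped in both. The genes that stood alone had less H3K27ac: 7.69 at H1f10, 6.65 at H1f7, 6.36 at H1f0 and none at H1f8, with H4f16 (34.4) as the exception. All of these but H4f16 are H1 genes, so place and class cannot be told apart.

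The highest H3K4me3 value of a member in the original list, 129.1, belonged to a peak 11.5 kb wide (rank 318 of 97213) that reached the linker histone gene H1f2, the H3 gene H3c3, the H2B gene H2bc3 and the H2A gene H2ac4. In the rescue list the strongest peak had a fold enrichment of 79.3 at H1f2, H3c3 and H2bc3 and 64.4 at H2ac4. H3c3 and H2bc3 also shared the highest H3K27ac value, 63.0. They were followed for H3K27ac by the H4 gene H4c14 of the chromosome 3 cluster at 53.1 and by H2ac10 and H3c8 at 48.7. H1f5, H3c11 and H2ac22 shared an H3K4me3 peak of 113.9, which was 86.4 in the rescue list, and H2bc6 reached 98.1 and 72.3.

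Among the H4 genes the highest H3K4me3 value was that of H4f16 on chromosome 6, 114.4 in the original list and 146.7 in the rescue list. In the original list this value came from a peak from 136806651 to 136811767, outside the gene body, that also gave the replacement H2A gene H2aj its value of 114.4. The peak over H4f16 itself had a fold enrichment of 80.4. H4c14 and H4c8 followed at 110.9 each, with 90.03 and 65.5 in the rescue list.

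The lowest values were less extreme outside the testis pair. H4c9 and H4c3 had the lowest H3K4me3 values of the H4 genes, 52.2 and 52.5, H3c1 and H3c6 of the H3 genes, 54.8 and 55.9, and H1f6 and H1f1 of the H1 genes with a peak, 52.5 and 54.8. The somatic linker histone gene H1f3 had H3K4me3 of 76.5, 77.9 in the rescue list, and H3K27ac of 29.1. The divergent genes H2ac12 and H2bc12 had 47.3. In the rescue list the genes with these low values lay between 57.1 at H3c1 and H1f1 and 77.7 at H4c9 and H2bc12, and H4c9, H3c6, H2ac12 and H2bc12 were above the members' median of 73.7 there. H2ac1 and H2bc1, which share a promoter region at the end of the chromosome 13 cluster, had the lowest values of their classes in both lists, 19.9 and 13.7.

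Many H2A and H2B genes were arranged head to head. Start sites could be placed from RefSeq promoter sequences for 66 members, at 67 start sites, and not for H2bc21, H4c14, H2bc4, H3c1 and H3c7. Among them 10 pairs pointed away from each other over a spacer of 163 to 280 bases (median 203.5), and all 10 joined an H2A to an H2B gene. The pairs below were chosen after their values were seen. Their spacers are shown because in at least 1 experiment the H3K4me3 peaks of each side stopped in or at the edge of them, written on the plus strand of GRCm38.p6 with capitals for CCAAT or its reverse ATTGG (a box bound by NF-Y), TATAAA or TTTATA, and the octamer ATTTGCAT or ATGCAAAT (the site of octamer factors such as POU2F1). They lie at chr13:21716184-21716411, chr13:21753913-21754075, chr13:22035644-22035820 and chr13:23571221-23571399.
H2bc13 to H2ac13 spacer: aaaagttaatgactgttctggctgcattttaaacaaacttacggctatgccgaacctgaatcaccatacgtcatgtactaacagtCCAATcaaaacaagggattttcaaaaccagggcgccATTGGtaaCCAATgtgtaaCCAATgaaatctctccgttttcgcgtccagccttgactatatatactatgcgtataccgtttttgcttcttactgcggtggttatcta
H2ac15 to H2bc15 spacer: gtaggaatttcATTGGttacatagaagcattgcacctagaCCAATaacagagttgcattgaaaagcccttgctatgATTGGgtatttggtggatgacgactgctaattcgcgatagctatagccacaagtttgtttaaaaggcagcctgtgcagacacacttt
H2ac12 to H2bc12 spacer: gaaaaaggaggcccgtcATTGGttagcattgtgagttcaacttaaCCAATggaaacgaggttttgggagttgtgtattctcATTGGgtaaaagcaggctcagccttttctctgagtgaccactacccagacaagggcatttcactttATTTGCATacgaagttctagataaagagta
H2ac8 to H2bc8 spacer: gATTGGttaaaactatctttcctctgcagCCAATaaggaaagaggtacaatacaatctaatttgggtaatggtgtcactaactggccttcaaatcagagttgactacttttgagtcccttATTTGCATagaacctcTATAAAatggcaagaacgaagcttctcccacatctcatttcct

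At 7 of the 10 pairs the middle of the spacer lay outside any H3K4me3 peak of the original list with peaks on both sides, and the uncovered gap was 96 to 172 bp (median 138). Between H2bc13 and H2ac13 the left peak ended at 21716247 and the right peak began at 21716371, a gap of 123 bp within a spacer of 228 bases. The gaps were 99 bp at H2ac15 and H2bc15, 153 bp at H2ac12 and H2bc12, 138 bp at H2ac22 and H2bc22 and 96 bp at H2bc7 and H2ac7. The spacer of H2ac8 and H2bc8 was covered in full in the original list and had a gap of 144 bp in the rescue list, whereas those of H2bc13 and H2ac13 and of H2ac15 and H2bc15 were covered in full in the rescue list. In the rescue list 6 pairs had such a gap (119 to 198 bp). For H3K27ac there were 7, of 121 to 518 bp. The pairs H2bc23 and H2ac23 and H2ac24 and H4bc24 had no H3K4me3 or H3K27ac in the spacer in any of the 3 lists.

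A gap in H3K4me3 was found at a larger share of member start sites than of all start sites. Of 57 member start sites with H3K4me3 within 1000 bases on both sides, 15 were outside a peak 50 bases before the start, against 8.49% of all such start sites, and in the rescue list 17 of 58 were, against 8.41%. For H3K27ac the same count was 42 of 55 against 65.1%. Over all 67 member start sites, 83.6% lay inside an H3K4me3 peak of the original list 250 bases before the start, 55.2% at 100 bases before it and 80.6% at 50 bases after it, whereas the values over 20085 start sites were 63.9%, 61.2% and 67.9%. H3K27ac fell to 19.4% of member start sites at 50 bases before the start, between 74.6% at 250 bases before and 68.7% at 100 bases after. All start sites showed the same dip in H3K27ac, with 13.5% at 50 bases before the start between 33.0% and 37.5%. Divergent partners share such a gap, so the start sites are not separate measurements. The marks were read from mononucleosomal fragments, and nucleosome position itself was not measured here.

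**Figure D3:**
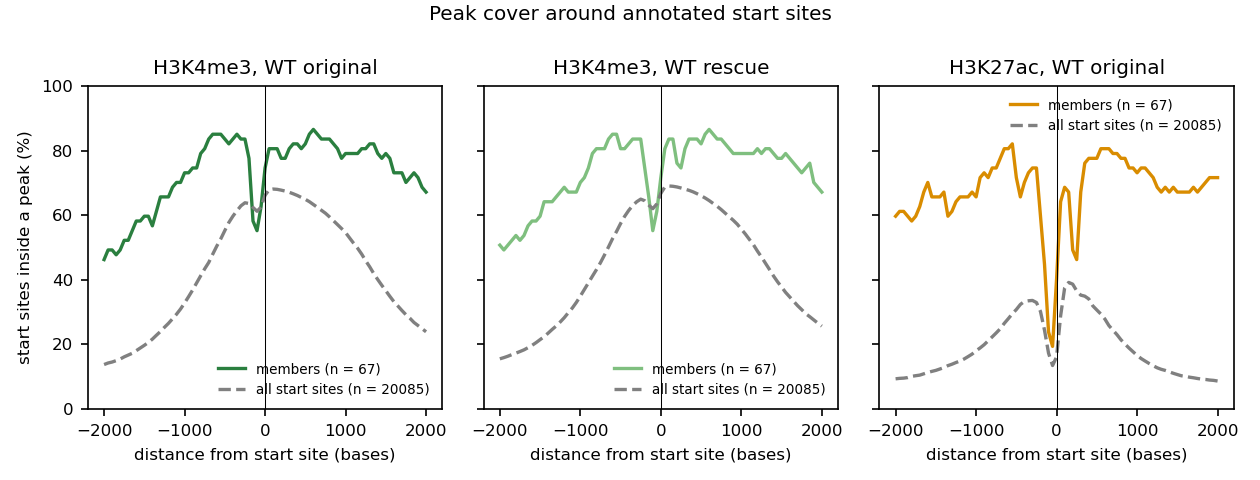
Share of annotated start sites inside a peak, in percent, by distance from the start site in bases (negative before it) in 3 lists of WT clone 410. The coloured line is the 67 start sites of members and the dashed grey line all 20085 start sites. The members' line is above the grey line on both sides and, for H3K4me3, drops to 55.2% at 100 bases before the start, below the 61.2% of all start sites in the original list.

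The promoter letters differed by class. The octamer, searched as ATTTGCAT on both strands of the 300 bases around each start site, was present at 7 of 18 H2A and 7 of 17 H2B start sites and at none of the 10 H1, 10 H3 and 12 H4 start sites, against 1.67% of all start sites. CCAAT was present at all 18 H2A, 17 H2B and 10 H3 start sites, at 7 of 10 H1 and at 3 of 12 H4 start sites, against 38.1% of all. TATAAA was found at 35 of the 67 member start sites, against 12.7%, and most often at H4, 8 of 12. All 8 spacers of up to 250 bases held at least 2 CCAAT boxes, and at most 5. Divergent partners share these letters, since the windows of a pair overlap. The members had a median of 11 CG dinucleotides per 300 bases against 14 over all start sites, and their median GC content was 45.7% against 57%.

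The genes without H3K4me3 were of 2 kinds. H2bc23, H2ac23 and H4c17 on chromosome 13 were the 3 members with no peak or region in any of the 10 lists (3.83% of all genes), and H1f7 and H1f8 lacked H3K4me3 in the original list but had weak peaks of 8.06 and 6.25 in the rescue list. H2bc23, H2ac23 and H4c17 belong to an inverted duplication. H4c17 and H4c18, H2ac23 and H2ac24, and H2bc23 and H4bc24 lie at equal distances, 9.82, 11.1 and 11.8 kb, on the left and right of a common centre and on opposite strands. The 300-base promoter sequences of H2bc23 and H4bc24 are identical, and those of H4c17 and H4c18 share an unbroken run of 285 bases. The 150 bases before the start sites of the H2B copies (chr13:21810200-21810349, minus strand, and chr13:21833593-21833742, plus strand) are shown to make this identity visible, with the same capitals as above.
H2bc23: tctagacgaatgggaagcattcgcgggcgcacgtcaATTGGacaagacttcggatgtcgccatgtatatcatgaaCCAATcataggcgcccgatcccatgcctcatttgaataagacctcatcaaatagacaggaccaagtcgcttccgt
H4bc24: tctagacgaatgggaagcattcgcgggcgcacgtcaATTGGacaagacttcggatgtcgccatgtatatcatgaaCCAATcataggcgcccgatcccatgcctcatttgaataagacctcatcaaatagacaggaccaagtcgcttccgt

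Both copies lay in stretches without peaks. No list had a peak or region in the 25.2 kb from 21795461 to 21820696 around the left copies, and none in the 16.1 kb from 21831683 to 21847795, which begins just before H4c18. H4c18, H2ac24 and H4bc24 were counted with H3K4me3 (52.8 and 41.0) and H3K27ac (18.9) only through peaks that ended before the first of them. None of the 6 gene bodies had a base inside an H3K4me3 or H3K27ac peak.

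**Figure D4:**
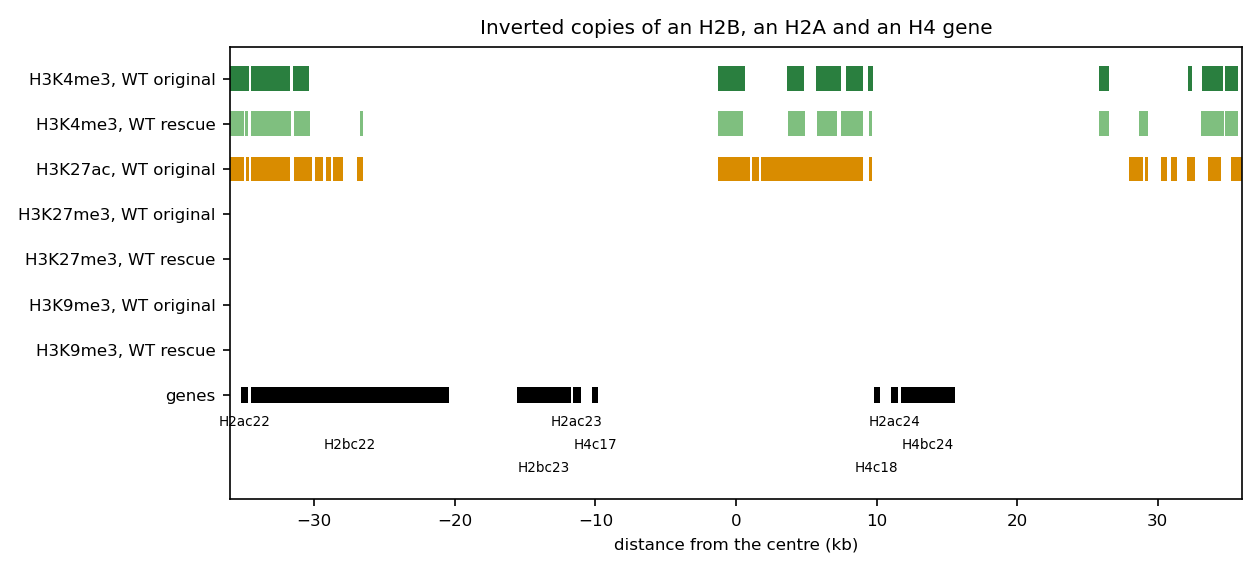
Peaks and regions of the 7 histone mark lists of WT clone 410 (coloured bars) and gene bodies (black) by distance in kb from the centre of the inverted duplication on chromosome 13. H3K4me3 and H3K27ac lie over the centre and outside the copies, and no bar overlaps the 6 genes from H2bc23 to H4bc24.

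The same held in part on chromosome 3, where H3c15 and H3c14 share 231 bases and H2ac19 and H2ac18 share 219 bases of promoter sequence in inverted order. In the original list H3K4me3 covered 23.9% of the body of H3c15, 23.04% of H3c14 and 6.88% of H2ac19, and none of H2ac18, although peaks of 75.8 and 102.0 lay beside them. In all, 10 members shared at least 200 bases of promoter with a member elsewhere, and at none of the 10 did H3K4me3 cover 50% of the gene body, whereas it did at 56 of the other 61, in the original and in the rescue list alike. This split was chosen after the values were seen. The other 61 include the 5 members without a promoter sequence, for which sharing could not be assessed. Reads from such copies match more than 1 place, and what was done with such reads is not stated in the sources used here. The part of read mapping was not tested, and the values of these 10 genes are uncertain.

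The Polycomb mark H3K27me3 and the heterochromatin mark H3K9me3 were found at a smaller share of the members than of all genes. H3K27me3, the mark set by PRC2, was found at 8 members in the original list (41.1% of all genes) and 13 in the rescue list (60.3% of all genes). H3K9me3, a mark of heterochromatin, was found at 5 (34.9% of all genes) and 11 (59.7% of all genes). Of the 28 loci of merged windows, 7 and 9 had H3K27me3 and 4 and 8 had H3K9me3, in the original and rescue lists. These are larger shares than those of the members. Among genes of up to 1000 bp the counts were 3 of 61 members against 24.6% for H3K27me3 and 2 of 61 against 15.7% for H3K9me3, in the original lists. H3K27me3 was present in both experiments at 7 members (36.4% of all genes) and H3K9me3 at 5 (33.9% of all genes). H3K4me3 and H3K27me3 met at 6 members in the original experiment (35.0% of all genes) and at 13 in the rescue experiment (49.4% of all genes). None of the 12 H3 genes and none of the 10 genes of the chromosome 3 cluster had H3K27me3, H3K9me3 or SUZ12 in any list. All of them had H3K4me3 and H3K27ac of the original experiment, a combination found at 12.3% of all genes. H3c13, H3c14 and H3c15 belong to both groups, so the groups are not separate results. Of the 10 H1 genes, 5 had H3K27me3 in each experiment, against 41.1% (original) and 60.3% (rescue) of all genes. H1f10 was among them in the original list alone and H1f6 in the rescue list alone. The rescue lists covered more of the genome, 930 Mb against 363 Mb for H3K27me3 and 465 Mb against 199 Mb for H3K9me3.

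The 7 genes with H3K27me3 in both experiments were H1f8, H1f0, H2bu2, H2bc6, H1f4, H2aw and H1f7. At the oocyte gene H1f8 a region of 24.3 kb in the original list and 34.7 kb in the rescue list covered the whole window of 10312 bp, with no H3K27ac. At H1f0 6589 and 6329 bp of the window were covered, and at H2bu2 all 5462 bp. At H1f4, a somatic linker histone gene, a region of 11.2 kb in the original list began beyond the gene and reached 2319 bp of the window, and a region of 15.9 kb in the rescue list covered 5179 bp and the gene body, beside H3K4me3 (78.8) and H3K27ac (16.6). The same region reached H2bc6, whose gene model of 37455 bp is the longest of the members. At H1f10 a region of 101 bp lay in the window but outside the gene body in the original list, and none lay there in the rescue list.

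H3K9me3 in both experiments was found at H2bc6, H1f7, H2bc14, H2bc4 and H1f6. At H2bc6 it covered 3181 bp in the original list and 4602 bp in the rescue list, all inside the long gene model. At H2bc14 a region of 8.22 kb began after the gene and covered 1597 bp of the window, and at H1f7, a spermatid linker histone gene, a region of 11.4 kb covered 2428 bp. At H2bc4 and at the testis linker histone gene H1f6 the same region of 1.12 kb reached 1121 and 10 bp. H3K9me3 covered 50% of a gene body at no member in the original list and at 1 in the rescue list, H4f16, where a region of 6.23 kb present in the rescue list alone covered the whole body. H3K27me3 and H3K9me3 reached the window of H1f7 from opposite sides, and it had an H3K27ac peak of 6.65.

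Genes of other kinds lay between and inside the clusters. Between the chromosome 13 clusters lay 1.49 Mb with 41 protein-coding genes, 36 of them Vmn1r vomeronasal receptor genes. Of these 41, 5 had H3K4me3 in the original list (79.8% of all genes) and 9 had H3K27ac (68.1% of all genes). H3K27me3 was found at 12 in the original list (41.1% of all genes) and at 33 in the rescue list (60.3% of all genes), so the share was below that of all genes in one experiment and above it in the other. H3K9me3 was found at 7 (34.9% of all genes) and 22 (59.7% of all genes). H3K4me3 peaks of the original list covered 35.4% of the smaller chromosome 13 cluster, 21.8% of the larger and 45.5% of the chromosome 3 cluster, and 6.85% of the ground between. Inside the clusters there were 9 other protein-coding genes, all on chromosome 13. Of these, 3 (Pom121l2, Prss16 and Hfe) had SUZ12 in all 3 clones (22.0% of all genes), too few genes to set apart from that share. The transporter genes Slc17a1, Slc17a2, Slc17a3 and Slc17a4 had no H3K4me3 in the original list and lay, with H2ac1 and H2bc1, in a rescue H3K27me3 region of 219 kb.

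The SUZ12 lists came from both genotypes. SUZ12 was found at 4 members in WT clone 410 (23.4% of all genes), at 6 in MCM2-2A clone 439 (27.2% of all genes) and at 5 in MCM2-2A clone 442 (28.8% of all genes), and at 6 in any of the 3 lists (31.0% of all genes). Among genes of up to 1000 bp the order was the reverse: SUZ12 was found at 3 of 61 members in clone 410 against 1.52% of all such genes, at 4 of 61 in clone 439 against 1.88% and at 4 of 61 in clone 442 against 2.02%. These shares of all short genes stand for 21, 26 and 28 genes, the members included. Among the members, H2ac1 and H2bc1 share 1 peak in each clone, so the reversed order rests on few peaks. The lists held 6298, 7571 and 7840 peaks in clones 410, 439 and 442. The 4 genes with SUZ12 in all 3 lists were H2ac1, H2bc1, H1f0 and H2aw (22.0% of all genes). The peaks at members were weak beside those at other genes: the highest, 13.4 at H1f0 in clone 442, was below the median of 14.4 over all genes with a SUZ12 peak there. No member reached the top 10% of a SUZ12 list. Over all 20665 genes, 691, 822 and 841 did in clones 410, 439 and 442, so its absence at 4 to 6 members says little. The members' medians were 7.08, 6.27 and 7.69, against 17.3, 16.6 and 14.4.

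The testis genes H2ac1 and H2bc1 shared a SUZ12 peak over their common promoter, with a fold enrichment of 7.18 in WT, 5.95 in clone 439 and 5.01 in clone 442, so the value was highest in WT. They were the members with the weakest H3K4me3 of the original list, had no H3K27ac, and lay in H3K27me3 of the rescue list alone. Their start sites, which face away over a spacer of 280 bases, are preceded by CCAAT and TATAAA in both and by the octamer within 150 bases in H2ac1, shown here (chr13:23934287-23934436, plus strand, and chr13:23934157-23934306, minus strand) to set them beside the 4 spacers above, all of which hold CCAAT, 2 the octamer and 1 TATAAA.
H2ac1: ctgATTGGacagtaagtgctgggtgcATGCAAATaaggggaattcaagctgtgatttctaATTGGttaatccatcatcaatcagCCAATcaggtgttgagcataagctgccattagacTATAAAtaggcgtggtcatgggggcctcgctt
H2bc1: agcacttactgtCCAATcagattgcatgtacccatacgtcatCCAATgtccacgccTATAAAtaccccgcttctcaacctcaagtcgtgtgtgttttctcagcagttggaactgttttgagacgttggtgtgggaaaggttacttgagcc

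H1f0, whose product is known to accumulate as cells leave the cycle, had SUZ12 at 6.98 in WT, 11.2 in clone 439 and 13.4 in clone 442, and the peak was 1.72, 3.43 and 3.88 kb wide. It carried H3K4me3 (72.3 and 57.7), weak H3K27ac (6.36) and H3K27me3 in both experiments. Its promoter had none of the 3 motifs in the 150 bases before the start site (chr15:79028062-79028211, plus strand), which are shown as a contrast to the paired genes.
H1f0: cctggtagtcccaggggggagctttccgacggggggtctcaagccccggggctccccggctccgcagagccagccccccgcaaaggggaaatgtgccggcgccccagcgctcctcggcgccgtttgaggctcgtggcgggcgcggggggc

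H2aw, an H2A gene, had SUZ12 at 5.12 in WT, 6.59 in clone 439 and 10.4 in clone 442. H2bu2, the H2B gene nearby on chromosome 11, had none in WT, where the nearest peak lay 3816 bp from the gene, and 6.60 and 7.69 in the MCM2-2A clones (SUZ12 in both mutant clones and not in WT: 1 member, 3.19% of all genes). Both genes had strong H3K4me3 (97.6 at H2bu2 and 91.3 at H2aw in the original list), H3K27ac (9.10 and 18.4) and H3K27me3 in both experiments. The window of H2aw also overlaps Trim17, so its peaks cannot be given to either gene alone. H1f10 had SUZ12 in clone 439 alone, at 5.53.

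In both mutant clones the fold enrichment of the SUZ12 peak was higher than in WT at H1f0 and H2aw and lower at H2ac1 and H2bc1. H2bu2 had a peak in both mutant clones and none called in WT, so it has no WT value. The fold enrichment is a ratio over local background within each list. Each clone gave 1 combined list, the lists differ in length, and with as many of the strongest peaks from each list (6298) the counts were 4, 5 and 3 members, so a difference between the genotypes at the members cannot be told apart from the length of the lists or from the clone.

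**Figure D5:**
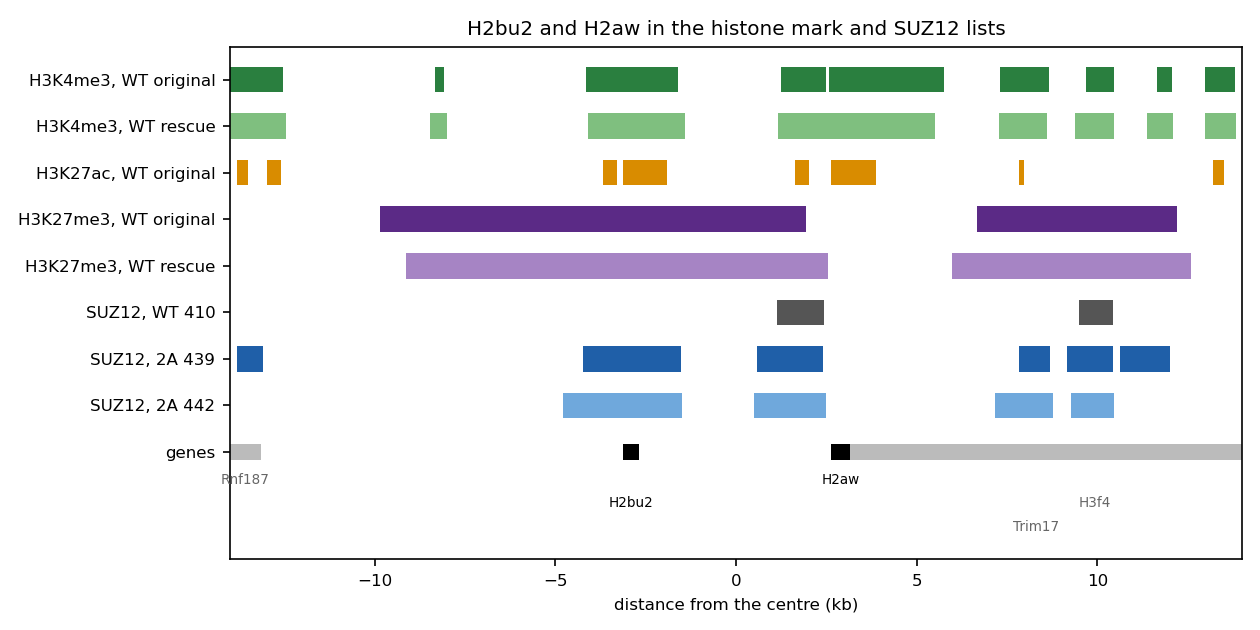
Peaks and regions of 8 lists (coloured bars) and gene bodies (members black, other genes grey) by distance in kb from the midpoint of H2bu2 and H2aw on chromosome 11. SUZ12 bars lie beside H2aw in all 3 clones and over H2bu2 in MCM2-2A clones 439 and 442 alone, while H3K27me3 of WT covers H2bu2 in both experiments.

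Genes that serve histone supply were compared by list. The annotation held 19 listed genes for histone mRNA transcription and processing. Among them are Npat, which activates histone genes in S phase, and Slbp, which binds the stem-loop of their mRNAs. All 19 had H3K4me3 and H3K27ac (66.5% of all genes), and 4 had H3K27me3 in the original list (41.1% of all genes). SUZ12 was found at 0, 2 and 3 of them in clones 410, 439 and 442 (23.4%, 27.2% and 28.8% of all genes). Their median fold enrichment was 91.6 for H3K4me3 and 13.2 for H3K27ac, the latter below the 31.3 of the members. Slbp had 38.1 for H3K27ac and Npat 11.8. All 16 histone chaperone genes and all 10 replacement and variant histone genes found also had both marks (66.5% of all genes), with medians of 19.1 and 18.4 for H3K27ac. Among the variants, Macroh2a1 and Macroh2a2 had SUZ12 in all 3 lists (22.0% of all genes): 8.99, 16.8 and 18.1 at Macroh2a1, and 11.2, 25.9 and 16.2 at Macroh2a2, in clones 410, 439 and 442. Here too a difference between the genotypes cannot be told apart from the length of the lists or from the clone.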

How the data were processed

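MNase-digested native chromatin (histone marks) and crosslinked, sonicated chromatin (SUZ12) of ES cells were immunoprecipitated with a Drosophila spike-in. The tools listed in the submitters' processing notes, with no role for each, were MACS2 2.1.0, Picard 2.20.7, BWA 0.7.15 and cutadapt 2.5, on build mm10. Caller settings and the treatment of reads that match several places are not stated there. Of 136 samples, 26 lay behind the 10 lists used, and the authors combined the replicates of each list, which limits the precision to 1 value per gene and list. For SUZ12, H3K4me3 and H3K27ac the authors deposited a fold enrichment (a ratio), a score and a −log10 q-value. For H3K27me3 and H3K9me3 they deposited regions with unnamed strength scores, used here only to rank regions. The SUZ12 lists were filtered by IDR.

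Genes and promoters (250 bases before to 50 after the start site) came from RefSeq, GRCm38.p6. Overlaps were computed in Python 3.11.15 with pandas 2.3.3 and tested on simulated intervals. Peaks in a window of gene body plus 2500 bp were counted, and the strongest was ranked in its list. Alternatives changed the flank, the minimum overlap, the list strength, the member rule and the background. No statistical test was made, since no list has replicates of its own. Genes named singly were all H1 genes, the 2 highest and 2 lowest of each class by H3K4me3, the 5 highest by H3K27ac, the testis and oocyte genes, and members with SUZ12, without H3K4me3 or with H3K27me3 or H3K9me3 in both experiments. The members and lists were chosen with earlier results of these data known.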

Additional observations from a re-analysis of the deposited data

How the results depend on the processing

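Of 90 recounts over 17 results, 69 stayed within 1.5 times the reported count. Flanks of 1000 and 5000 bp, an overlap of at least 200 bp and ranking by −log10 q moved none. With genes no longer than 37455 bp as the background, the share of genes with H3K9me3 in the original list was 21.3% in place of 34.9%, and the other 9 background shares stayed within 1.5 times. With the gene body alone, H3K27me3 was left at 4 members in the original list, H3K9me3 at 2 in the original and 5 in the rescue list, and 7 members had no peak in any list (chosen after seeing the data). Merged windows gave 26, 28 and 26 of 28 loci for H3K4me3 original, H3K4me3 rescue and H3K27ac. For H3K27me3 they gave 7 (original) and 9 (rescue) of 28, and for H3K9me3 4 and 8. For SUZ12 they gave 3, 5 and 4 in clones 410, 439 and 442. The recounts were compared as counts, so here loci were set beside members. The share of loci with these repressive lists was larger than the share of members. In the stronger part of each list (at or above its median), SUZ12 was found at 0, 0 and 1 members in clones 410, 439 and 442 and H3K9me3 of the rescue list at 7. Regions covering at least 50% of the window left H3K27me3 at 3 (original) and 7 (rescue) members and H3K9me3 at 0 and 1. The rescue lists gave 13 for H3K27me3, 11 for H3K9me3 and 13 for H3K4me3 with H3K27me3. The strongest regions of the rescue H3K9me3 list, as many as the original list holds, gave 6. SUZ12 in clone 442 was found at 3 of 67 members by current symbol alone and at 3 members with as many peaks as the smallest list. The cause was not tested. No paired analysis was possible because each list combines its replicates, and for the same reason no replicate could be left out. The depth behind the lists is unknown.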
